A study of Homo sapiens with 15 samples.

Results

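Genes of the epidermal growth factor receptor (EGFR) family were compared between PE/CA-PJ41 cells labelled CYGB+ and NCE on expression microarrays. The members were 10 genes: the receptors EGFR, ERBB2 and ERBB3, the ligands AREG, EREG, TGFA, HBEGF, BTC and NRG1, and the cytoplasmic receptor inhibitor ERRFI1. They were found as probes, other than control probes, whose RefSeq transcript accession belongs to one of these genes, which gave 17 of the 42405 different probes on the array, and 10 of the 19483 genes that its RefSeq accessions name. PE/CA-PJ41 is an established line of human oral squamous carcinoma cells. CYGB+ cells carried the pCMV6-Neo plasmid with human cytoglobin cDNA, behind the cytomegalovirus promoter of that plasmid, and NCE cells carried the empty vector by the labels, whereas the study's text calls them un-transfected, a difference that was not settled here. Both were kept in the same supplemented medium for 24 h before RNA was extracted, on 3 occasions. The study's methods name a single stable clone, LST421, as the cytoglobin-expressing cells on the arrays, so the 3 CYGB+ biological replicates come from 1 clone and p-values measure the spread between RNA extractions. Each NCE biological replicate was hybridised to 3 arrays and each CYGB+ biological replicate to 2 arrays, 15 arrays in all.

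EGFR and its relatives are receptor tyrosine kinases that pair with each other when a ligand binds and then signal through the RAS and ERK cascade and through PI3 kinase. The ligands are made as membrane-bound precursors, and metalloproteases of the ADAM family cut them free. EGFR is often present in large amounts in squamous carcinoma of the head and neck, where it is a drug target, and in normal squamous epithelium its ligands act on the cells that make them.

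Values are log2 signals of the green channel, the Cy3 dye that the labels give for every sample, after quantile normalisation, which gives all arrays the same distribution of signals. A difference of 1 on this scale is a doubling. Arrays of one biological replicate were averaged first, so each group has n = 3. Differences are CYGB+ minus NCE, with the standard error (SE) and adjusted p of a limma fit over the 22328 probes that were well above background on at least 6 of the 15 arrays, and a gene was called when its Benjamini-Hochberg adjusted p was under 0.05. A gene is represented by its brightest probe, and levels of different probes are not compared.

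Several facts of the whole series touch these values. All 8 arrays of slide 1 were NCE, and slide 2 held the 6 CYGB+ arrays with 1 array of NCE replicate 1. Slide and group can therefore hardly be told apart. Differences against that 1 NCE array are given below as within-slide values. They set the mean of the 6 CYGB+ arrays, of replicates 1 to 3, against NCE replicate 1 alone. A shift from the main difference therefore mixes slide with replicate. The fit with slide as a term, also given below, took the 15 arrays as units, with the biological replicate as a random block. It thus differs from the main fit in its unit as well as in slide, and its slide term rests on that 1 NCE array. The same fit without slide called 4810 of all probes, and with slide 612. One array of CYGB+ replicate 1 had a median correlation of 0.906 with the others, against 0.951 to 0.978 for the rest. The only CYGB probe (NM_134268) read 12.39, 13.47 and 13.01 in CYGB+ replicates 1 to 3 and 12.84, 13.14 and 12.96 in NCE, a difference of -0.02 (SE 0.28, limma adjusted p = 0.97). That probe therefore did not separate the groups. It was well above background on all 9 NCE arrays, although the study describes the parent line as not expressing cytoglobin. Why the NCE arrays carried this signal was not tested. The place of the probe relative to the transfected cDNA is not given in the sources used here. The CYGB probe therefore did not bear out the labels, on which the directions below rest. The study's measurements of cytoglobin by other assays were not analysed here. The methods section of the study also names Cy5 for control RNA, and values of the red channel were not used for any comparison. Of 10 markers of squamous epithelium, all were well above background on all 15 arrays, and 1, KRT16, was lower in CYGB+ (-0.74, limma adjusted p = 0.032), with 5 of the 10 differences above 0 and 5 below. KRT14 differed by 0.74 (limma adjusted p = 0.11, and 0.045 with the replicate number as a block) and KRT17 by 0.68 (limma adjusted p = 0.33). All CYGB+ replicates lay above all NCE replicates in 1 of the 10, KRT14. They lay below in 4: KRT16, KRT6A (-0.38), DSG3 (-0.44) and EPCAM (-0.50), the last 3 not called (limma adjusted p 0.13 to 0.19). Over all probes tested, 16.9% had all above and 16.3% all below. The log2 of the summed signal of the 10 markers ran from 17.19 to 17.57 in CYGB+ and from 17.17 to 17.34 in NCE. Of 5 fibroblast markers, COL1A2 was lower (-2.54, limma adjusted p = 0.0022) and the list summed to 6.78 to 7.32 in CYGB+ against 8.61 to 8.92 in NCE, while LUM and PDGFRB were well above background on 0 arrays. COL1A1, well above background on 7 NCE and 6 CYGB+ arrays, differed by 0.24 (limma adjusted p = 0.74). Of the leukocyte markers, CD14 was well above background on all 15 arrays (-0.49, limma adjusted p = 0.32), and PTPRC on 1 NCE and 2 CYGB+ arrays at its brightest probe. Of 3 endothelial markers none was well above background on all arrays and VWF was on 0, with sums of 5.80 to 6.34 in CYGB+ and 5.94 to 6.43 in NCE. CDH5, well above background on 8 NCE and 6 CYGB+ arrays, differed by 0.24 (limma adjusted p = 0.49). The part of these markers in the results below was not tested.

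At their brightest probes, the receptor EGFR and NRG1, the ligand of ERBB3, were lower in cells labelled CYGB+, by 1.71-fold and 1.75-fold. No other member was called. Of the 10 members, 2 were called, both lower, where 8.23% of all probes tested were called and 3.82% were called lower. At an unadjusted p under 0.05 the limma fit gave 3 members lower and 1 higher. Without the CYGB+ array that stood apart, 3 members were called lower, EREG being the addition, and 3718 of all probes were called in place of 1838. The median difference over the 10 members was -0.14, and over all probes tested it was -0.00209. In 4 members (EGFR, NRG1, EREG and ERRFI1) all 3 CYGB+ replicates lay below all 3 NCE replicates, and in BTC all 3 lay above. Over all probes tested, 16.3% had all CYGB+ replicates below and 16.9% had all above. Every member had a probe well above background on all 15 arrays, as did 15 of the 17 probes, and none was saturated.

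**Figure D1:**
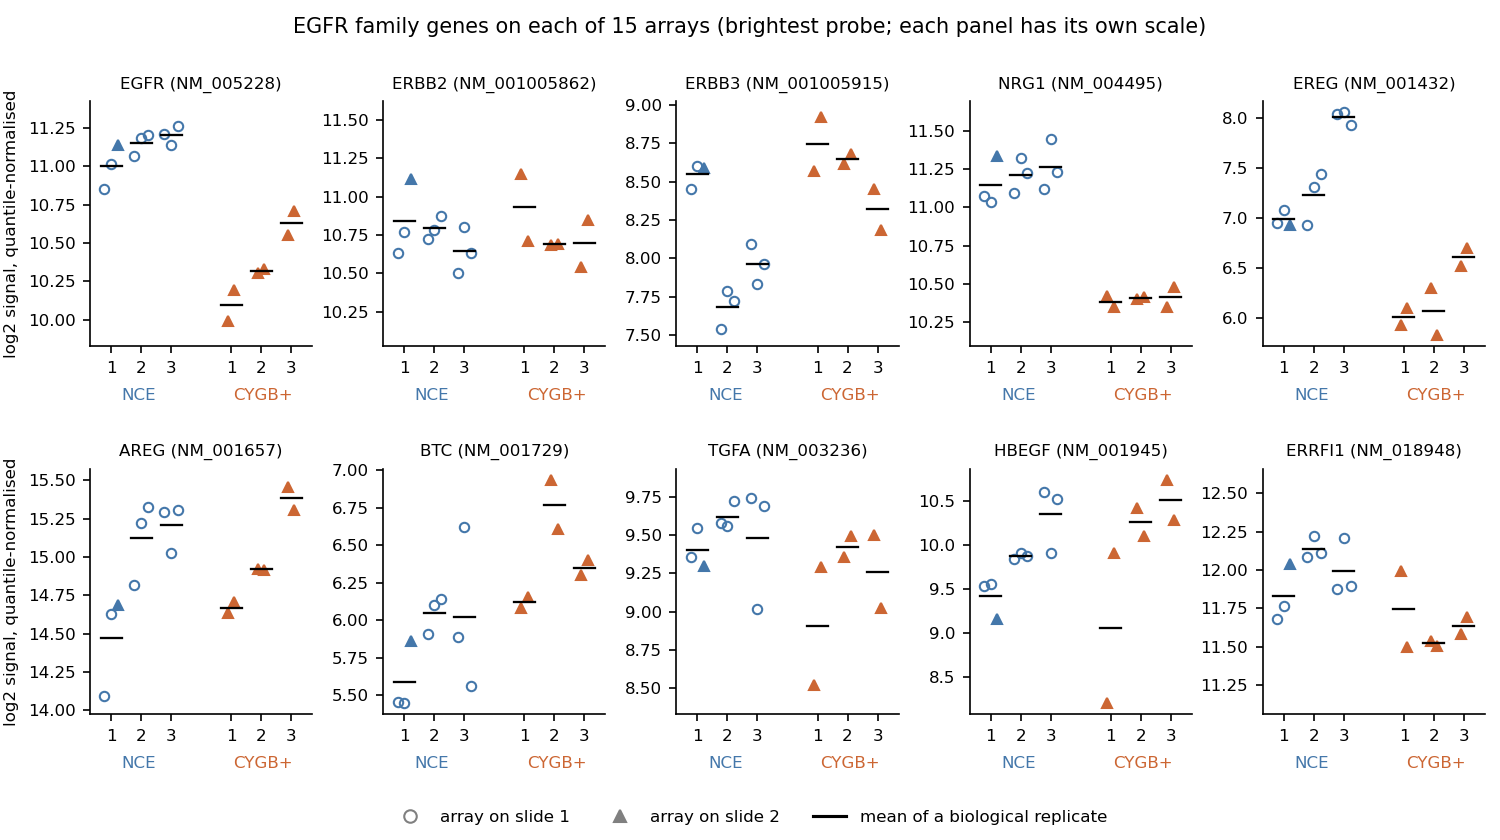
Log2 quantile-normalised signal of each member's brightest probe on each of 15 arrays, grouped by biological replicate of NCE (blue) and CYGB+ (orange). Circles are arrays of slide 1, triangles arrays of slide 2, and black bars means of a biological replicate. The 6 CYGB+ arrays of EGFR, NRG1 and EREG all lie below the 9 NCE arrays, whereas the arrays of the other members overlap.

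The sequences before the start sites of EGFR and of 4 ligand genes that lie side by side on chromosome 4 are shown because the differences of these genes were unequal. They are the 250 bases before the RefSeq start site in GRCh38.p14, 5′ to 3′ on the gene's strand, with capitals at matches to the TATA box motif TATAAA, the cyclic AMP response element TGACGTCA, the AP-1 site TGACTCA or the GC box GGGCGG, searched on both strands.
EGFR promoter, chr7:55018767-55019016, plus strand: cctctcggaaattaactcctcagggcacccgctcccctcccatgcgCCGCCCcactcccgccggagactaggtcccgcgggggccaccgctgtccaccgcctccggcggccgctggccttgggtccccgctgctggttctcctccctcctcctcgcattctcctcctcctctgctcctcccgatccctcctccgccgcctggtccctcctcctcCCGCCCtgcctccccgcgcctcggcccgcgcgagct
EPGN promoter, chr4:74308220-74308469, plus strand: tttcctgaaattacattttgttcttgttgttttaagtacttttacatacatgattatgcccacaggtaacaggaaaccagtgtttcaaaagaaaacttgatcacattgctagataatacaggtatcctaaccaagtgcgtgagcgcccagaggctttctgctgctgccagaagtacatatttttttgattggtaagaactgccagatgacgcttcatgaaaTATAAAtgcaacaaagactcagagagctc
EREG promoter, chr4:74364895-74365144, plus strand: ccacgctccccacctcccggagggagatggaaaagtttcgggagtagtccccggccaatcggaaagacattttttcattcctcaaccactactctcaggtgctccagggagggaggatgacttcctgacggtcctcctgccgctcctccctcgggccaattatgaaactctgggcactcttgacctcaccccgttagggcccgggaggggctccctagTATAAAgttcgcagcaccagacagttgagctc
AREG promoter, chr4:74444886-74445135, plus strand: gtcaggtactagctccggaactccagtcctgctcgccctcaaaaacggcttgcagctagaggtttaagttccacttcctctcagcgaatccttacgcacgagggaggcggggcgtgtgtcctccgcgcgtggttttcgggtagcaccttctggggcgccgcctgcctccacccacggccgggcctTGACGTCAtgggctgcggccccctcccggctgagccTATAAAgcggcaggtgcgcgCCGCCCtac
BTC promoter, chr4:74794524-74794773, minus strand: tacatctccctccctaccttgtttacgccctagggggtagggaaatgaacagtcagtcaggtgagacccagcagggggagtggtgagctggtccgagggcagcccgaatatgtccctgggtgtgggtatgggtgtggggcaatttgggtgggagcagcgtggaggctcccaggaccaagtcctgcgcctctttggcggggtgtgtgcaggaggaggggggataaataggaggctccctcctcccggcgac
The EGFR window was 73.6% G and C and held 2 GC boxes and no TATA box. The windows of EPGN, EREG and AREG each held 1 TATA box, and that of AREG also held 1 cyclic AMP response element and 1 GC box. None of the 4 motifs was matched in the BTC window. Over 27305 RefSeq promoters, TATAAA occurred in 11.1%, TGACGTCA in 1.77%, TGACTCA in 4.16% and GGGCGG in 42.3% of windows of the same length, and the median content of G and C was 58%. A match is a description of the letters and not of a bound site.

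Among the receptors, EGFR, which binds EGF, transforming growth factor alpha and amphiregulin, was the member with a call. Its probe for NM_005228, the full-length receptor, is spotted 10 times on the array. It read 11.003, 11.15 and 11.20 in NCE replicates 1 to 3 and 10.09, 10.32 and 10.63 in CYGB+ replicates 1 to 3. All 3 CYGB+ replicates were low, and none of the 6 CYGB+ arrays (9.99 to 10.71) reached the lowest of the 9 NCE arrays (10.85). The difference was -0.77 (SE 0.19, 95% interval -1.20 to -0.34, limma adjusted p = 0.047), which is 1.71-fold lower. Within slide 2 the difference was -0.79, and in the fit of single arrays with slide as a term it was -0.85 with a limma adjusted p of 0.057. The call stood close to the threshold. It was lost when any 1 biological replicate was left out: the limma adjusted p was 0.071, 0.094 and 0.052 without CYGB+ replicates 1, 2 and 3, and 0.10, 0.17 and 0.17 without NCE replicates 1, 2 and 3. The difference itself stayed between -0.91 and -0.65 over these fits. Without the CYGB+ array that stood apart, the limma adjusted p was 0.021. Of 18 alternative fits, 6 called EGFR. It was also not called with scaling to the 75th percentile (limma adjusted p = 0.060), with no filter on dim probes (0.075), in the authors' processed values (0.051) or by the other test run, that of the study's methods (0.099).

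EGFR had 2 further probes, named for NM_201283 and NM_201282, accessions of shorter transcripts that encode truncated receptors without the kinase domain. The NM_201283 probe read 7.77, 7.77 and 8.16 in NCE and 7.71, 7.97 and 8.23 in CYGB+, a difference of 0.07 (SE 0.20, 95% interval -0.40 to 0.54, limma adjusted p = 0.86). The NM_201282 probe read 6.54, 7.07 and 6.60 in NCE and 5.74, 7.23 and 6.71 in CYGB+, a difference of -0.17 (SE 0.37, limma adjusted p = 0.81), and was well above background on 14 of 15 arrays. The groups overlapped at both. The difference of the NM_005228 probe minus that of the NM_201283 probe was -0.84, and the contrast within replicates, 3.04 to 3.39 in NCE and 2.35 to 2.40 in CYGB+, did not overlap between groups. An exact two-sided permutation test over the 6 replicates gave p = 0.1, the smallest that 3 against 3 allows. Against the NM_201282 probe the contrast was -0.60 and overlapped (exact permutation p = 0.2). When the 3 probes were averaged, EGFR differed by -0.29 (limma adjusted p = 0.43) and was not called.

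ERBB2, the receptor that has no known ligand of its own and serves as partner to the others, was measured by a probe spotted 10 times. It read 10.84, 10.79 and 10.64 in NCE and 10.93, 10.69 and 10.69 in CYGB+. The groups overlapped, and the difference was 0.01 (SE 0.16, 95% interval -0.35 to 0.38, limma adjusted p = 0.97). Its sign was not stable: it was -0.35 within slide 2, -0.35 with slide as a term (limma adjusted p = 0.58) and -0.05 with normexp, another background correction.

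ERBB3, the neuregulin receptor with little kinase activity, was measured by 3 probes. The brightest, named for NM_001005915, the accession of a short secreted form, read 8.55, 7.68 and 7.96 in NCE and 8.74, 8.65 and 8.32 in CYGB+, a difference of 0.50 (SE 0.25, 95% interval -0.08 to 1.09, limma adjusted p = 0.25). Within slide 2 that difference was -0.02, against an array of NCE replicate 1, the highest NCE replicate, that read 8.59. The probe for NM_001982, the full-length receptor, read 8.62, 8.05 and 7.85 in NCE and 7.84, 8.32 and 7.63 in CYGB+, a difference of -0.24 (SE 0.27, limma adjusted p = 0.60). The groups overlapped at both probes. Their contrast, NM_001982 minus NM_001005915, ran from -0.12 to 0.37 in NCE and from -0.90 to -0.32 in CYGB+ and did not overlap, a difference of -0.75 (exact permutation p = 0.1, the smallest possible). Another probe for NM_001982 was well above background on 1 NCE array and no CYGB+ array and was not tested.

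**Figure D2:**
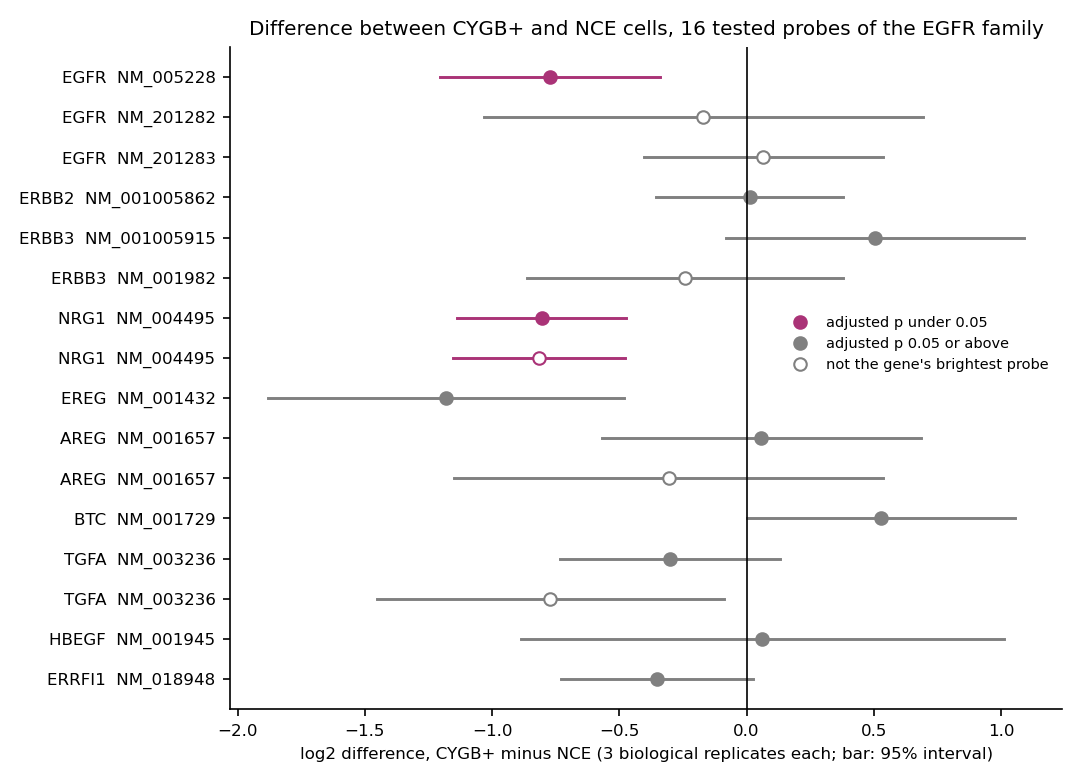
Log2 difference, CYGB+ minus NCE, of the 16 tested probes of the family, with 95% intervals from the limma fit on 3 biological replicates a group. Filled points are each gene's brightest probe, open points its other probes, and purple marks a limma adjusted p under 0.05. EGFR NM_005228 (-0.77) and both NRG1 probes (-0.80 and -0.81) are purple. The other EGFR probes are at 0.07 (NM_201283) and at -0.17 (NM_201282), the latter with a wide interval of -1.03 to 0.69.

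Among the ligands, NRG1 had the most uniform change. Neuregulin 1 binds ERBB3 and ERBB4 and so brings ERBB2 into signalling. Its brightest probe for NM_004495 read 11.15, 11.21 and 11.27 in NCE and 10.39, 10.41 and 10.41 in CYGB+, a difference of -0.80 (SE 0.14, 95% interval -1.14 to -0.47, limma adjusted p = 0.019), 1.75-fold lower. The 6 CYGB+ arrays lay between 10.35 and 10.48 and the 9 NCE arrays between 11.03 and 11.44. The other NRG1 probe, for the same accession, read 10.89, 11.04 and 10.97 in NCE and 10.11, 10.20 and 10.16 in CYGB+, a difference of -0.81 (SE 0.14, limma adjusted p = 0.019). The groups were apart at both probes. As both are named for the same accession, they do not stand for all NRG1 transcripts, and which of these they detect was not tested. Within slide 2 the differences were -0.93 and -0.76. In the fit of single arrays with slide as a term, NRG1 was the only member called (-0.98, limma adjusted p = 0.0073). Of 18 alternative fits, 14 called it. The exceptions left out CYGB+ replicate 3 (limma adjusted p = 0.057) or NCE replicate 1, 2 or 3 (0.061, 0.092 and 0.092).

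EREG, epiregulin, a ligand of EGFR and ERBB4, had the widest difference of the members. Its probe read 6.99, 7.23 and 8.01 in NCE and 6.01, 6.07 and 6.61 in CYGB+. All CYGB+ replicates were low and the groups did not overlap, and neither did the arrays, at most 6.70 in CYGB+ and at least 6.93 in NCE. The difference was -1.18 (SE 0.30, 95% interval -1.88 to -0.48), and the limma adjusted p of 0.055 missed the threshold. Replicate 3 was the highest in both groups, and with the replicate number as a block the limma adjusted p was 0.013, in a fit that called 11.6% of all probes tested. It was also called without the CYGB+ array that stood apart (limma adjusted p = 0.036). Within slide 2 the difference was -0.71, against an array of NCE replicate 1, the lowest NCE replicate, that read 6.94. With slide as a term the difference was -0.85 with a limma adjusted p of 0.39. With normexp it was -0.58. Of 18 alternative fits, 6 called EREG, among them that of the authors' processed values (limma adjusted p = 0.029).

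AREG, amphiregulin, which binds EGFR alone, did not separate the groups. Its brightest probe read 14.47, 15.12 and 15.21 in NCE and 14.67, 14.92 and 15.38 in CYGB+, a difference of 0.06 (SE 0.27, 95% interval -0.57 to 0.68, limma adjusted p = 0.91). Its other probe read 13.30, 14.07 and 14.12 in NCE and 12.80, 13.77 and 14.01 in CYGB+, a difference of -0.31 (SE 0.36, limma adjusted p = 0.63), so the sign depended on the probe. At both probes replicate 1 was the lowest of its group.

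BTC, betacellulin, a ligand of EGFR and ERBB4, was the member that lay higher in all CYGB+ replicates. It read 5.59, 6.05 and 6.02 in NCE and 6.12, 6.77 and 6.35 in CYGB+, a difference of 0.53 (SE 0.23, limma adjusted p = 0.19) that was not called. The arrays overlapped, since 1 NCE array read 6.62 and the lowest CYGB+ array 6.08. With normexp the difference was 0.12.

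EREG, AREG and BTC are neighbours on chromosome 4, in the order EPGN, EREG, AREG, BTC, and EPGN encodes epigen, another EGFR ligand. EPGN read 6.59, 6.49 and 6.89 in NCE and 6.96, 8.01 and 7.77 in CYGB+, a difference of 0.92 (SE 0.28, limma adjusted p = 0.088), not called. Its groups did not overlap, and without the CYGB+ array that stood apart it was 1.11 higher (limma adjusted p = 0.0096). With slide as a term EPGN differed by 1.02 with a limma adjusted p of 0.30. So next to EREG, at -1.18, lay a gene at 0.92 on one side and a gene at 0.06 on the other. The difference of EREG minus that of EPGN was -2.11, minus that of AREG -1.24 and minus that of BTC -1.71. None of these contrasts overlapped between groups, and each gave the smallest possible exact permutation p of 0.1. All share the values of EREG, whose own groups did not overlap, so they are not separate support for its difference. Over single probes, 16.3% had all CYGB+ replicates below and 16.9% had all above, and the share over pairs of probes was not computed. Over the 6 contrasts computed, including those of the EGFR and ERBB3 probes, the Benjamini-Hochberg value of the 5 that did not overlap was 0.12 by these exact tests.

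**Figure D3:**
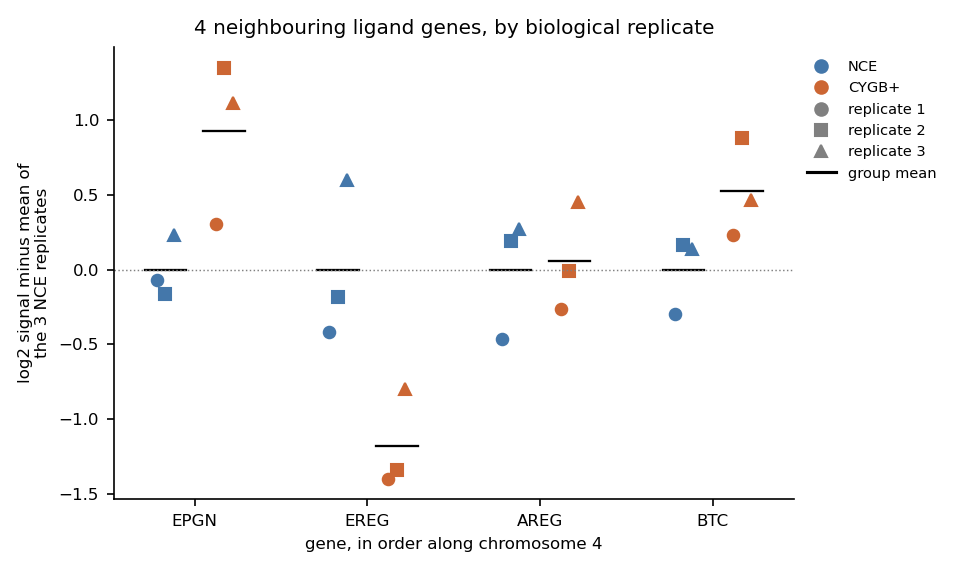
Log2 signal of 4 neighbouring ligand genes, in order along chromosome 4, as the value of each biological replicate minus the mean of the 3 NCE replicates of that gene. Colours give the group, symbols the replicate number and bars the group mean. EREG lies at -1.18 in CYGB+, EPGN at 0.92, AREG at 0.06 and BTC at 0.53.

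TGFA, transforming growth factor alpha, a ligand of EGFR, read 9.40, 9.62 and 9.48 in NCE and 8.91, 9.42 and 9.26 in CYGB+ at its brightest probe, a difference of -0.30 (SE 0.18, limma adjusted p = 0.34). Its other probe read 6.50, 7.29 and 7.09 in NCE and 5.75, 6.64 and 6.18 in CYGB+, a difference of -0.77 (SE 0.29, limma adjusted p = 0.14). Both probes were lower on average and the groups overlapped at both. With the replicate number as a block the second probe was called (limma adjusted p = 0.034). Within slide 2 it differed by -0.05, against an NCE replicate 1 array at 6.24, where CYGB+ replicate 1 averaged 5.75.

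HBEGF, the heparin-binding ligand of EGFR and ERBB4, read 9.42, 9.88 and 10.35 in NCE and 9.06, 10.26 and 10.52 in CYGB+. Replicate 3 was the highest and replicate 1 the lowest in each group, the groups overlapped, and the difference was 0.06 (SE 0.41, 95% interval -0.89 to 1.01, limma adjusted p = 0.94). The CYGB+ array that stood apart read 8.21, and the other 5 CYGB+ arrays 9.92 to 10.75. Without that array the difference was 0.35 (limma adjusted p = 0.40). Within slide 2 it was 0.79, against an NCE replicate 1 array at 9.16, where CYGB+ replicate 1 averaged 9.06.

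ERRFI1, also known as MIG6, is induced by EGFR signalling and binds the kinase domain of EGFR to shut it off. It read 11.83, 12.14 and 11.99 in NCE and 11.75, 11.52 and 11.64 in CYGB+. The CYGB+ replicates were all lower, and the groups came closest at 11.83 and 11.75. The arrays overlapped, with 1 CYGB+ array at 11.99 and the lowest NCE array at 11.68. The difference was -0.35 (SE 0.16, 95% interval -0.73 to 0.02, limma adjusted p = 0.21), not called.

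Outside the family, 57 genes of the EGFR pathway were examined in 5 groups, and 52 of them were tested. Of these, 2 were higher in CYGB+ and 3 lower, where 4.41% of all probes tested were called higher and 3.82% lower. Their median difference was -0.03, with 26 genes above 0 and 26 below. Without the CYGB+ array that stood apart, 5 were higher and 6 lower. That fit called 8.81% of all probes tested higher and 7.84% lower. The widest difference was in the inhibitors. SPRY1, Sprouty 1, which restrains signalling from growth factor receptors to ERK, read 7.44, 7.06 and 7.13 in NCE and 4.51, 4.82 and 4.76 in CYGB+, a difference of -2.51 (SE 0.18, limma adjusted p = 0.0013), 5.70-fold lower. It was well above background on all 9 NCE arrays and 4 of 6 CYGB+ arrays. It was called in all 16 alternative fits that tested it, and within slide 2 it differed by -2.87. With normexp, which was run with an offset of 50 added to the signals, the difference was -0.92 (limma adjusted p = 0.0051). LRIG3, of a family of membrane proteins whose member LRIG1 lowers EGFR, read 7.77, 8.60 and 7.98 in NCE and 6.73, 7.003 and 6.93 in CYGB+, a difference of -1.23 (SE 0.24, limma adjusted p = 0.026). LRIG3 differed by -0.67 within slide 2 and by -0.77 with slide as a term (limma adjusted p = 0.38). The other 12 tested inhibitors were not called. Among them SPRY2 differed by -0.51 (limma adjusted p = 0.088) and SPRY4 by 0.81 (limma adjusted p = 0.070).

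Of the 6 sheddases and rhomboid proteins, RHBDF2 was called. RHBDF2, iRhom2, carries the ligand-cutting protease ADAM17 to the cell surface. It read 12.06, 12.10 and 12.39 in NCE and 11.29, 11.51 and 11.37 in CYGB+, a difference of -0.79 (SE 0.17, limma adjusted p = 0.032), and with slide as a term it was -0.65 (limma adjusted p = 0.086). ADAM17 itself differed by 0.01 (limma adjusted p = 0.99). Of the 12 genes that ERK signalling induces, 2 were called, both higher. EGR1, an immediate-early transcription factor, read 12.15, 12.32 and 12.10 in NCE and 13.29, 13.38 and 13.14 in CYGB+, a difference of 1.08 (SE 0.16, limma adjusted p = 0.011). SPHK1, sphingosine kinase 1, read 13.17, 13.28 and 13.17 in NCE and 13.93, 14.14 and 13.96 in CYGB+, a difference of 0.80 (SE 0.15, limma adjusted p = 0.023). Both were called with slide as a term (limma adjusted p 0.012 and 0.035). The ERK phosphatase DUSP6, in the same group, differed by -0.57 (limma adjusted p = 0.13). PHLDA1, also there, differed by -0.98 (limma adjusted p = 0.15) and was called with the replicate block (limma adjusted p = 0.039).

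The 19 adaptors and kinases, from GRB2 to ERK and AKT, differed by -0.43 to 0.35, and limma called 0 of them at their brightest probes, with 1 lower at an unadjusted p under 0.05 and 0 by the other test that was run, the one in the study's methods. A dimmer AKT2 probe was higher by 0.75 (limma adjusted p = 0.027), and the brightest AKT2 probe differed by 0.22 (limma adjusted p = 0.54). Of the remaining ligands and the receptor ERBB4, EPGN was tested. NRG4, a ligand of ERBB4, was well above background on 5 CYGB+ arrays and 0 NCE arrays and so was not tested. The CYGB+ mean, over all 6 arrays, was 2.03-fold a floor for NCE. That floor is the mean, per NCE array, of the higher of the probe's own signal and the lowest signal well above background. No test or interval stands behind this ratio. Within slide 2, against the 1 NCE array there, the log2 difference of NRG4 was 0.32, where it was 1.07 over all replicates. ERBB4 was well above background on at most 2 arrays at either of its probes.

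Leaving out single replicates ended calls in this list. RHBDF2 was not called when any 1 replicate was left out (limma adjusted p 0.053 to 0.13). LRIG3 was called without NCE replicate 1 but not without the others (limma adjusted p 0.053 to 0.075). SPHK1 was called without CYGB+ replicate 1 but not without the others (limma adjusted p 0.057 to 0.10). EGR1 was called except without NCE replicate 3 (limma adjusted p = 0.056).

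**Figure D4:**
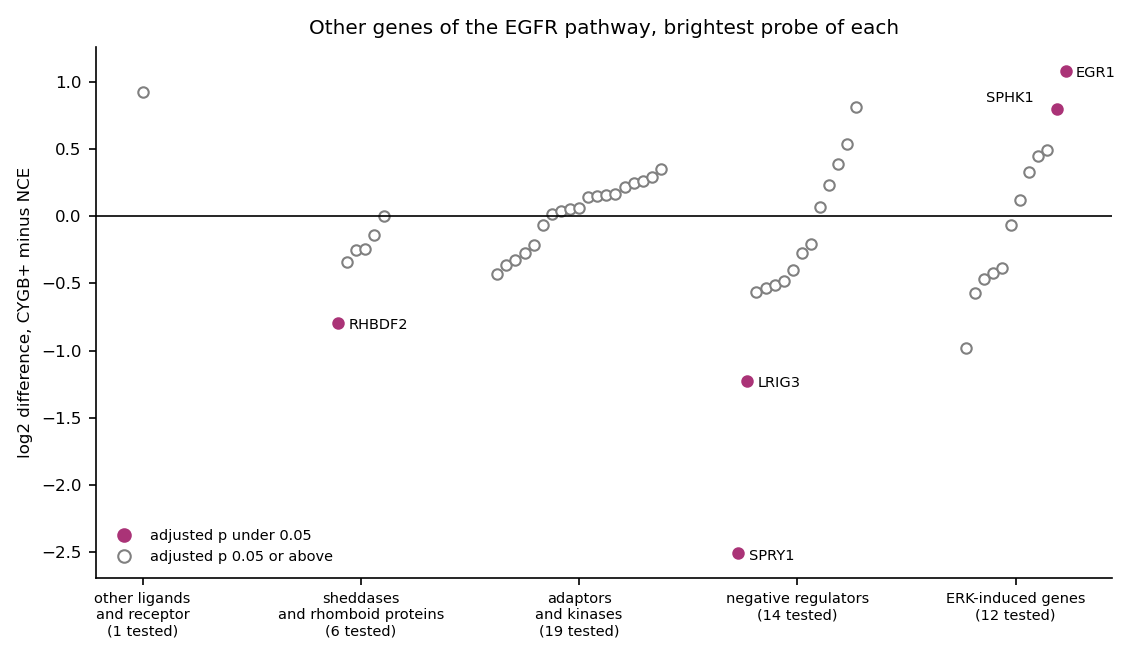
Log2 difference, CYGB+ minus NCE, of the 52 tested pathway genes outside the family, one point a gene at its brightest probe, in 5 groups. Purple points passed a limma adjusted p of 0.05, and their names are printed. SPRY1 stands lowest at -2.51 and EGR1 highest at 1.08, and the adaptors and kinases lie between -0.43 and 0.35.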

How the data were processed

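The deposited scanner tables hold green-channel intensity from Agilent Feature Extraction 10.7.3.1, run per the file headers on a protocol for 2 colours, with background subtracted and dyes normalised. From these, log2 values were quantile-normalised over 15 arrays, control spots were left out, spots with outlier flags were set to missing, and spots of a probe and arrays of a biological replicate were averaged. limma 3.58.1 was fitted in R 4.3.3. Between 53.8% and 61.3% of spots per array were well above background, and the number of arrays limits the precision. RefSeq tables gave a symbol to 25422 of 27310 probes with a RefSeq accession, and the first promoter entry of each gene.

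The members, the pathway list and the markers were chosen with earlier results of these data known. Members and CYGB are named whatever their values, with up to 3 called genes in each of 5 pathway groups. EPGN, SPRY2, SPRY4, ADAM17, DUSP6, PHLDA1, AKT2, NRG4, ERBB4 and the markers printed were picked after their values were seen. The 6 contrasts between probes were not part of the plan. Alternatives were scaling, filters, another test, arrays as units, slide, left-out replicates and normexp on median signals (mean signals were not used here). The normexp fit thus started from signals before the scanner software's background subtraction and dye normalisation. The fit without the CYGB+ array that stood apart was added after seeing the data. Deviations of samples with the same replicate number had correlations of 0.22, 0.28 and 0.31 over all probes. Between samples with different numbers they were -0.50 to 0.23, so the ranges overlapped. The number was tried as a block, and whether it marks true pairs is not settled. The authors also deposited values on a natural log scale, as read from their smallest value, and 15031 probes of these were used as an alternative. They followed the green channel (correlations of 0.84 to 0.98), with column medians of -0.16 to 0.18, and how they were centred stays unknown. One leukocyte marker is not reported here. Scripts were tested on simulated data.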

Additional observations from a re-analysis of the deposited data

Results flagged for a closer look

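HBEGF had a single array far from its group. Over the 6 CYGB+ arrays, the array of replicate 1 at 8.21 lay below the other 5, which read 9.92 to 10.75, and its gap to the nearest of them was 0.674 of the whole range. The same array had the lowest correlation with all others. Both groups of arrays were examined for each of the 10 genes, 20 groups in all. For independent values, chance alone picks out about 1 in 20 such groups. These arrays were repeats of 3 biological replicates and recurred in every gene, so that rate need not hold here.

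The red channel, whose own values were used in no comparison, also carried signal for the family. The green values of the main fit were taken after the scanner software had normalised the dyes. Of the 16 tested probes of the 10 genes, 13 were well above background in the red channel on all 15 arrays. The labels describe a single RNA for each array, so which RNA this signal came from was not tested.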

How the results depend on the processing

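With 3 replicates a group, slide close to group and calls near the threshold, counts of calls moved with the processing, and the causes were not tested. Over all probes, the methods' t-test called 656, the fit with slide as a term 612, the fit of all arrays with the biological replicate as a random block 4810 and the fit without 1 CYGB+ array 3718. Without CYGB+ replicates 1, 2 and 3 it was 1666, 1142 and 875, and without NCE replicates 1, 2 and 3 it was 689, 394 and 509. Among the 10 members, 1 was called with scaling to the 75th percentile, no filter on dim probes, the t-test, slide as a term, or the mean of a gene's probes, and 0 to 1 with a replicate left out, while EREG was the third call with the replicate block, the random block, a mean-variance trend, a filter for all 15 arrays, or without 1 CYGB+ array. Of the pathway genes, the t-test called 3, the random block 16, the fit without 1 CYGB+ array 11, and the fits with a replicate left out 1 to 5. The replicate block called 2589 probes, and of the genes counted by their brightest probe it changed the calls of EREG, PHLDA1 and KRT14. Signs turned for members near 0 and for CYGB. ERBB2 was -0.35 with slide as a term and within slide 2, -0.047 with normexp and -0.061 without 1 CYGB+ array. With a replicate left out ERBB2 was -0.067 to 0.053. AREG was -0.12 as the mean of its probes and -0.17 to 0.22 with a replicate left out. HBEGF was -0.22 to 0.50 with a replicate left out. CYGB was 0.091 with scaling to the 75th percentile and 0.047 in the authors' processed values. With a replicate left out CYGB was -0.28 to 0.26. ERBB3, at 0.50 in the main fit at its brightest probe, turned there only within slide 2 (-0.019), against 1 array of NCE replicate 1. Its sign also depended on the probe, as the NM_001982 probe was at -0.24 in the main fit. EGFR, EREG, NRG1, TGFA, BTC and ERRFI1 kept their sign in every alternative run.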

Other observations

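The members differed in how much of their spread lay between arrays of the same biological replicate and between replicates of a group. For EGFR (NM_005228) the SD was 0.10 between arrays of a replicate and 0.20 between replicates. For EREG these were 0.19 and 0.44, and for AREG 0.22 and 0.38. HBEGF had the widest spread of the brightest probes on both counts, 0.47 between arrays and 0.64 between replicates, and NRG1 the narrowest between replicates, 0.04, where its arrays gave 0.13.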
